A study of Homo sapiens with 12 samples.

Results

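The 35 genes described here encode the BCL2 family, caspases, inhibitor of apoptosis proteins and the adaptors and kinases of the death receptor complex. They were chosen by name as genes of apoptosis and necroptosis, by a rule that uses no measured value but with earlier results of these data known, from 54127 gene rows in the deposited counts. Of the 35 members, 32 passed the filter on low counts (at least 10 counts in at least 6 libraries) and were among the 14505 genes tested. HRK, RIPK3 and BCL2A1 did not pass and are given by their counts only.

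RNAseq was carried out on C4-2 cells, an androgen-responsive prostate cancer line derived from LNCaP, grown in RPMI medium with serum. Cells received either DMSO vehicle (6 libraries) or PBKi at 1 µM for 6 h (6 libraries). PBKi is the compound HI-TOPK-032, which inhibits the kinase PBK. No allele or transgene is given for either group, and the labels describe the RNA as taken from flow sorted cells. Nothing in the labels says that the replicates were separate cultures, so p-values measure the spread between these libraries, which may be technical.

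Apoptosis is run by caspases, proteases that are held inactive until they are assembled on a platform. In the intrinsic route, BH3-only proteins and pore-forming members of the BCL2 family open the mitochondrial outer membrane and release cytochrome c, and survival members of the family hold them back. In the extrinsic route, death receptors recruit the adaptor FADD with CASP8 and CASP10, CFLAR competes with these caspases, and inhibitor of apoptosis proteins act further down or on the kinase RIPK1.

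Depth was 9663203 to 28029908 reads on genes per library in DMSO and 13122415 to 22817803 in PBKi, and DMSO replicate 5, with 3 sequencing lanes in place of 4, was the shallowest. The share of reads outside genes was 5.74% to 6.96% in DMSO and reached 9.30% in PBKi, where replicates 3 and 6 had the most. Mitochondrial RNA made up 0.472% to 1.20% of reads on genes in DMSO and 0.796% to 2.28% in PBKi. PBK itself, the kinase the compound targets, went from 219 ± 37.2 to 165 ± 15.1 CPM (SD, n = 6 each). CPM here is the read count of a gene scaled to the size of its library with TMM normalisation. The 8 luminal epithelial markers summed to 4373 to 5140 CPM in DMSO and 2029 to 2917 CPM in PBKi, and 5 of them fell while 1 rose. Markers of other cell types were low. The 8 immune markers summed to 2.77 to 4.70 CPM in DMSO and 5.24 to 6.38 CPM in PBKi, nearly all of it CD68, while CD3D and MS4A1 were at 0 in all libraries and PTPRC reached at most 3 counts. Marker sums in DMSO and PBKi ran from 22.0 to 27.0 and 20.5 to 25.4 CPM for fibroblasts and smooth muscle, mostly COL1A1 (means 18.7 and 19.8 CPM). For endothelium they ran from 4.36 to 7.57 and 3.47 to 4.91 CPM. Most of this was VWF (means 5.26 and 3.61 CPM), which fell, while CDH5 had at most 1 count. For basal epithelium they ran from 1.10 to 1.73 and 0.665 to 1.50 CPM, mostly KRT14 (means 1.40 and 0.829 CPM), which fell. The part of these differences in the results on apoptosis genes was not tested. In bulk RNA, fewer cells of a type and less RNA per cell cannot be told apart.

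BIRC3, CASP4, CASP10 and CASP8 transcripts rose by 1.85-fold to 5.95-fold in PBKi, and the other called members changed by less than 0.5 on the log2 scale. By edgeR's quasi-likelihood test, with adjusted p under 0.05 as the threshold, 11 of 32 members were higher in PBKi (34.4%), beside 20.1% of all genes tested. On the other side, 3 of 32 members were lower (9.38%) beside 21.5% of all genes tested. A rise of at least 0.5 on the log2 scale was seen in 4 members (12.5%, beside 8.81% of all genes) and a fall of at least 0.5 in 0 members (beside 4.32% of all genes). The 6 PBKi values all lay above the 6 DMSO values in 6 members (18.8%, beside 10.5% of all genes), and all lay below in 0 members (beside 9.68% of all genes). The median log2 fold change was 0.04 over the members and -0.01 over all genes tested. With library size alone as the scaling, the median over all genes was 0.03.

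**Figure D1:**
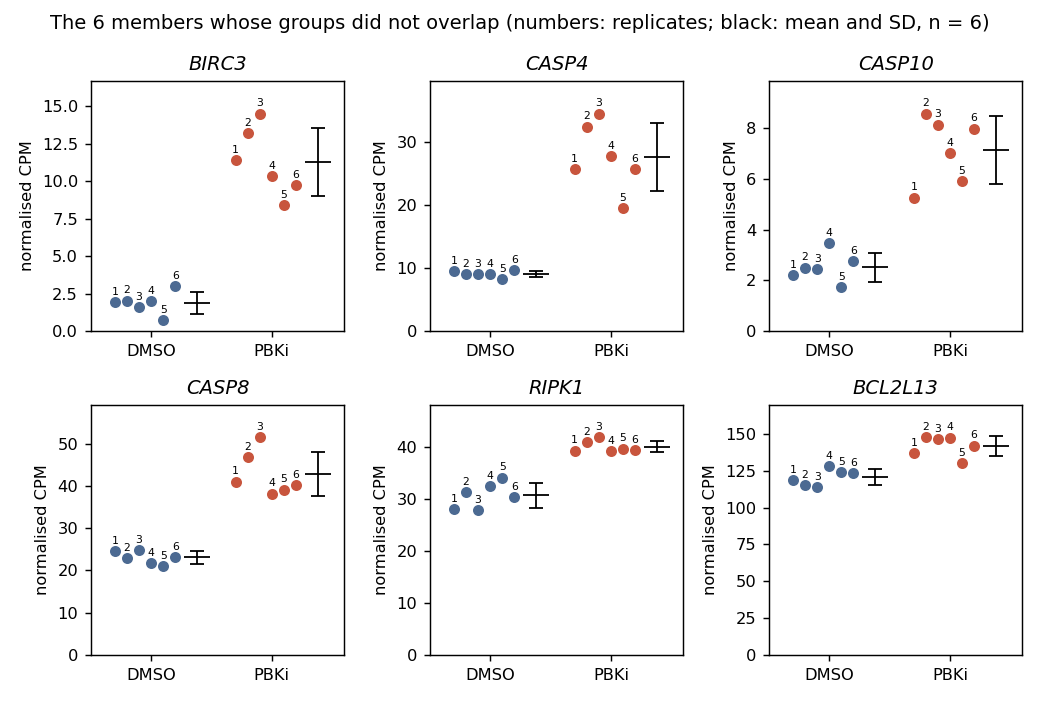
Normalised CPM (vertical axis, from 0) of BIRC3, CASP4, CASP10, CASP8, RIPK1 and BCL2L13 in each library, with the replicate number above each point and the mean and SD (n = 6) as black bars. In each of the 6 genes the lowest PBKi library lies above the highest DMSO library, by a wide gap in BIRC3 and CASP4 and a narrow one in BCL2L13 (130.3 against 128 CPM).

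Among the 4 members that are inhibitor of apoptosis proteins, BIRC3 rose most, XIAP rose slightly, and BIRC2 and BIRC6 did not pass the test. Of the further listed genes described below, BIRC5 and BIRC7 belong to this family and were named after their values were seen. BIRC5 fell from 263 ± 31.0 to 198 ± 19.6 CPM (SD, n = 6 each; log2 fold change -0.41, adjusted p = 0.000491), and its groups overlapped. BIRC7 had at most 1 read in any library and was not tested. BIRC3 (cIAP2, a ubiquitin ligase of the TNF receptor complexes) lies on chromosome 11 of GRCh37 from 102188215 to 102210134, on the plus strand. Its lowest, median and highest values were 0.757, 1.96 and 3.02 CPM in DMSO and 8.39, 10.9 and 14.5 CPM in PBKi. The groups were far apart, with DMSO replicate 5 the lowest and PBKi replicate 3 the highest library. BIRC3 went from 1.89 ± 0.731 to 11.3 ± 2.26 CPM (SD, n = 6 each; log2 fold change 2.57, SE 0.19, adjusted p = 8.67e-09). The DMSO values rested on 7 to 45 reads per library and the PBKi values on 125 to 342, so the DMSO level is the less precise side of this fold change.

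BIRC2 (cIAP1), the closest relative of BIRC3, lies beside it on the same strand, from 102217942 to 102249401. BIRC2 measured 85.4 ± 8.91 CPM in DMSO and 87.1 ± 6.82 CPM in PBKi (SD, n = 6 each; log2 fold change 0.03, adjusted p = 0.802). The sign of BIRC2 turned without DMSO replicate 5 (-0.03) or PBKi replicate 3 (-0.0055). XIAP, the direct inhibitor of executioner caspases, rose from 153 ± 13.9 to 179 ± 8.93 CPM (SD, n = 6 each; log2 fold change 0.23, SE 0.060, adjusted p = 0.00519). BIRC6, a very large ubiquitin-conjugating member, went from 127 ± 27.9 to 146 ± 34.1 CPM (SD, n = 6 each; log2 fold change 0.20, adjusted p = 0.282), and its groups overlapped. Scaled per kb of exon, BIRC3 remained the least abundant of the 4 after its rise, at 1.51 CPM per kb in PBKi beside 7.88 for BIRC6, 18.8 for XIAP and 19.3 for BIRC2. Its share of the summed level per kb of these 4 members, which leaves out BIRC5, was 0.601% in DMSO and 3.17% in PBKi.

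The sequences upstream of BIRC3 and CASP4 are shown because these are the members with the largest rises, and they come from the RefSeq promoter table (build GRCh38.p14), each with 1 exact match in GRCh37. They cover the 250 bases before the start that the promoter table uses for each gene, 5′ to 3′ on the gene's strand. That of BIRC3 matched chr11:102187965-102188214 on the plus strand, and that of CASP4 matched chr11:104839302-104839551 on the minus strand. The CASP4 stretch lies within the annotated span of the gene (104813593 to 104840093). Its start is therefore not the first base of that span. Capitals mark 2 matches to the kappa B motif in BIRC3, both in minus orientation, at -199 to -190 and at -135 to -126 from the start, and 1 match to an antioxidant response element (TGACNNNGC) in CASP4, at -114 to -106.
BIRC3: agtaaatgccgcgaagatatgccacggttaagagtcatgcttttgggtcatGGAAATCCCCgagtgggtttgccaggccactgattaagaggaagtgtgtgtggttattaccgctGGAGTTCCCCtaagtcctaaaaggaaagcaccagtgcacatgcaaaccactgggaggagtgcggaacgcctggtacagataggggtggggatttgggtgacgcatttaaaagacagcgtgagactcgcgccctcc
CASP4: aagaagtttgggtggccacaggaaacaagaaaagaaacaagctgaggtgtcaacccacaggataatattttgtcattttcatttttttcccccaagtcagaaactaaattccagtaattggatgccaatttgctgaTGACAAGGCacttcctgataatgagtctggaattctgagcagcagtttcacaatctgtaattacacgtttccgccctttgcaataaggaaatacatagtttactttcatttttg

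The motifs were searched on both strands of the 250 bases upstream, in 55 promoters of the 29 members that the table holds, and CASP10 is not among these. The kappa B motif was found upstream of BIRC3, BIRC6, BMF and CFLAR, in 4 of the 55 member promoters and in 5.21% of all 35116 promoters. The antioxidant response element TGACNNNGC was found upstream of BAD, CASP4, CFLAR, HRK and XIAP, in 6 of 55 and in 10.9% of all promoters. The AP-1 motif TGANTCA was found upstream of BCL2L13, CASP8 and CFLAR (3 of 55, and 6.57% of all promoters), and the gamma-activated sequence TTCNNNGAA upstream of BCL2A1 and CASP8 (2 of 55, and 6.57%). The interferon-stimulated response element GAAANNGAAA was found upstream of BCL2A1 and RIPK1 (3 of 55, and 3.02%). These are matches of letters in a short window, not measured binding.

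In the death receptor complex and its initiator caspases, CASP10, CASP8, RIPK1 and CFLAR rose, and none of the members fell. CASP10, an initiator caspase recruited to death receptors, measured 1.73, 2.48 and 3.46 CPM (lowest, median and highest) in DMSO and 5.26, 7.49 and 8.57 CPM in PBKi. All PBKi libraries were higher than all DMSO libraries. CASP10 went from 2.52 ± 0.579 to 7.14 ± 1.33 CPM (SD, n = 6 each; log2 fold change 1.50, SE 0.15, adjusted p = 5.77e-07), on 16 to 68 reads per library in DMSO and 70 to 192 in PBKi.

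CASP8, the main initiator caspase of death receptors and the protease that restrains necroptosis, measured 21.1, 23.0 and 24.9 CPM (lowest, median and highest) in DMSO and 38.2, 40.6 and 51.5 CPM in PBKi. The DMSO libraries lay close together, and PBKi replicate 3 was the highest. CASP8 rose from 23.1 ± 1.49 to 42.8 ± 5.23 CPM (SD, n = 6 each; log2 fold change 0.89, SE 0.077, adjusted p = 9.50e-08).

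RIPK1, the kinase and scaffold that both survival and death complexes of the TNF receptor use, measured 27.9, 30.8 and 34.1 CPM (lowest, median and highest) in DMSO and 39.3, 39.5 and 41.8 CPM in PBKi. The PBKi libraries lay within a narrow range above all DMSO libraries. RIPK1 rose from 30.7 ± 2.45 to 40.1 ± 1.07 CPM (SD, n = 6 each; log2 fold change 0.39, SE 0.058, adjusted p = 3.85e-05). CFLAR (c-FLIP), the catalytically inactive relative of CASP8, rose from 24.8 ± 1.72 to 29.7 ± 1.92 CPM (SD, n = 6 each; log2 fold change 0.26, adjusted p = 0.00304), with a slight overlap of the groups.

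FADD, the adaptor that joins receptor and caspase, measured 5.64 ± 1.36 and 6.71 ± 0.702 CPM (SD, n = 6 each; log2 fold change 0.28, adjusted p = 0.0949). FADD passed the test only without DMSO replicate 5, its highest DMSO library (log2 fold change 0.39, adjusted p = 0.00867). A transcript that was counted as another gene overlaps 59.2% of the exon bases of FADD, so its counts are uncertain. TRADD, the adaptor of the TNF receptor, measured 8.44 ± 0.781 and 9.16 ± 0.667 CPM (SD, n = 6 each; log2 fold change 0.12, adjusted p = 0.251).

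The other initiator caspases did not pass the test. CASP2, which is activated on the PIDDosome, measured 113 ± 7.99 CPM in DMSO and 118 ± 6.49 CPM in PBKi (SD, n = 6 each; log2 fold change 0.06, adjusted p = 0.407). CASP9, which the apoptosome activates, measured 7.08 ± 0.584 and 6.63 ± 0.875 CPM (SD, n = 6 each; log2 fold change -0.10, adjusted p = 0.452).

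CFLAR, CASP10 and CASP8 lie next to each other on the plus strand of chromosome 2, from 201980877 to 202041410, from 202047595 to 202094151 and from 202098166 to 202226559 in GRCh37. The protein-coding genes tested on either side had log2 fold changes between -0.17 and 0.50, all below those of CASP10 and CASP8. Upstream of CFLAR, HYCC2 had a log2 fold change of 0.31 (adjusted p = 0.00426) and NDUFB3 of -0.16 (adjusted p = 0.283). Beyond CASP8, TRAK2 had 0.24 (adjusted p = 0.00191) and STRADB -0.17 (adjusted p = 0.0240). FLACC1, which lies within the span of CASP8 on the opposite strand, had a log2 fold change of 0.50 (SE 0.28, adjusted p = 0.164) at 0.597 CPM in DMSO and 0.855 CPM in PBKi.

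**Figure D2:**
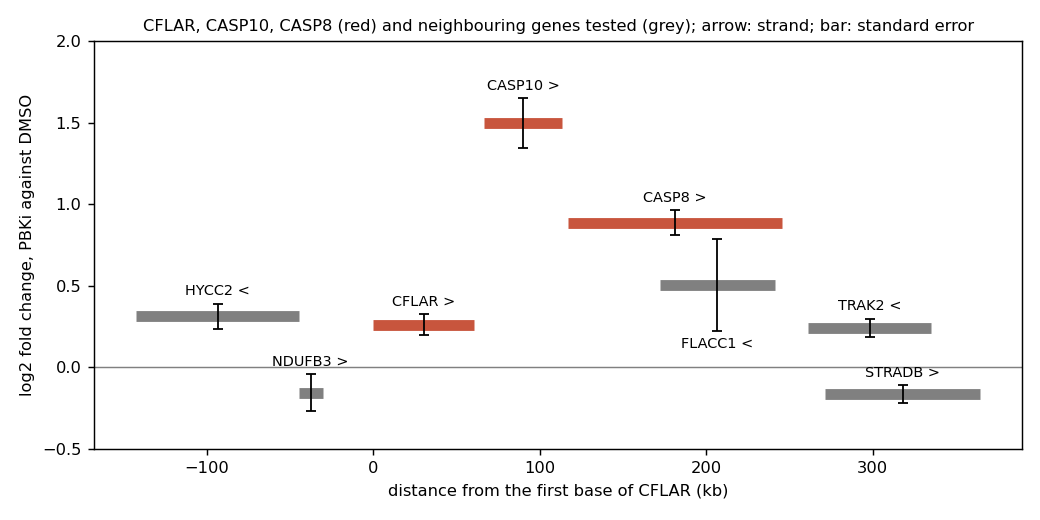
Log2 fold change of PBKi against DMSO (vertical axis, with the standard error) against distance from the first base of CFLAR in kb (horizontal axis), for CFLAR, CASP10 and CASP8 in red and the neighbouring protein-coding genes tested in grey, each drawn over its length with its strand as an arrow. CASP10 at 1.50 and CASP8 at 0.89 stand above the neighbouring genes, and CFLAR at 0.26 lies between HYCC2 at 0.31 and TRAK2 at 0.24.

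CASP4, an inflammatory caspase that senses intracellular lipopolysaccharide and cleaves gasdermin D, was the member with the second largest rise. It lies on the minus strand of chromosome 11, from 104813593 to 104840093 in GRCh37. The CASP4 sequence printed above is upstream of the start in the promoter table and lies within this span. Its lowest, median and highest values were 8.22, 9.04 and 9.73 CPM in DMSO and 19.6, 26.8 and 34.5 CPM in PBKi. All 6 DMSO libraries lay within a narrow band, whereas the PBKi libraries spread widely, with replicate 5 the lowest and replicate 3 the highest. CASP4 rose from 9.09 ± 0.519 to 27.7 ± 5.34 CPM (SD, n = 6 each; log2 fold change 1.61, SE 0.11, adjusted p = 6.85e-09). CASP6, an executioner caspase, measured 10.2 ± 0.570 and 10.5 ± 1.70 CPM (SD, n = 6 each; log2 fold change 0.03, adjusted p = 0.853), and its log2 fold change was -0.03 without PBKi replicate 2, its highest library.

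Of the survival members of the BCL2 family, MCL1 and BCL2L2 rose slightly, and BCL2L1 and BCL2 did not pass the test. MCL1, a short-lived survival protein, went from 233 ± 13.6 to 259 ± 7.71 CPM (SD, n = 6 each; log2 fold change 0.15, adjusted p = 0.0174). BCL2L2 (BCL-w) went from 63.6 ± 7.86 to 72.9 ± 2.28 CPM (SD, n = 6 each; log2 fold change 0.20, adjusted p = 0.0245). The rise of BCL2L2 did not pass the test without DMSO replicate 1 (adjusted p = 0.0608), without DMSO replicate 3 (0.0567) or without PBKi replicates 3 and 6 together (0.0842), and 23.3% of its exon bases are shared with other genes counted, among them the readthrough gene BCL2L2-PABPN1.

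BCL2L1 (BCL-XL) measured 87.4 ± 8.16 and 96.6 ± 5.04 CPM (SD, n = 6 each; log2 fold change 0.15, adjusted p = 0.0659). It passed the test without DMSO replicate 4 (adjusted p = 0.0332), DMSO replicate 5 (0.0132) or PBKi replicate 5 (0.0284), and also in the Wald test of DESeq2 (0.0482), with at least 50 counts required (0.0276), with a covariate for the sets of replicates (0.0404) and in replicates 1 to 3 alone (0.0056). BCL2, the founding member of the family, was close to the lower limit of what was tested, at 1.18 ± 0.395 CPM in DMSO and 1.10 ± 0.360 CPM in PBKi (SD, n = 6 each), on 10 to 33 and 12 to 24 reads per library. Its log2 fold change of -0.08 had a standard error of 0.25 (adjusted p = 0.821), so a change of moderate size was not detectable at this depth, and the sign turned without DMSO replicate 5 (0.0027), DMSO replicate 6 (0.04) or PBKi replicate 3 (0.09). BCL2A1 had 0 reads in all DMSO libraries, which allows up to 0.0305 CPM over the group for counting error only, and 2 reads in all in PBKi.

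Among the members tested, the pore-forming effectors and most BH3-only proteins, which oppose the survival proteins, did not pass the test. BAK1 measured 16.5 ± 2.90 and 16.0 ± 0.684 CPM (SD, n = 6 each; log2 fold change -0.05, adjusted p = 0.714), and its sign turned without DMSO replicate 3 (0.03) or DMSO replicate 5 (0.0042). BOK measured 54.0 ± 7.94 and 46.3 ± 4.72 CPM (SD, n = 6 each; log2 fold change -0.22, adjusted p = 0.0589), and passed the test without DMSO replicate 3 (adjusted p = 0.0271) or PBKi replicate 6 (0.0406), with lanes 6 to 8 only (0.0350), without a filter on low counts (0.0246) and with the covariate for the sets of replicates (0.0186).

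Among the BH3-only members, BMF rose and BID fell, both by small amounts. Of the further listed genes described below, the BH3-only genes BBC3 (log2 fold change -0.44, adjusted p = 0.0157) and PMAIP1 (-0.23, adjusted p = 0.0407) also fell. These 2 genes were named after their values were seen. BMF, which is tethered to the cytoskeleton in healthy cells, went from 8.84 ± 1.07 to 10.5 ± 0.825 CPM (SD, n = 6 each; log2 fold change 0.27, adjusted p = 0.0188), and did not pass without DMSO replicate 1 (adjusted p = 0.0516) or without PBKi replicates 3 and 6 together (0.0746). BID, which CASP8 cleaves to link the extrinsic to the mitochondrial route, went from 32.6 ± 1.90 to 28.6 ± 2.48 CPM (SD, n = 6 each; log2 fold change -0.19, adjusted p = 0.0265). The fall of BID is the least stable of the calls along with that of CYCS. It did not pass without DMSO replicate 3, 4 or 6, nor without PBKi replicate 1, 2 or 3, with adjusted p-values from 0.0502 to 0.0775.

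BIK measured 10.4 ± 1.79 and 8.86 ± 1.01 CPM (SD, n = 6 each; log2 fold change -0.24, adjusted p = 0.0963, and 0.0382 without DMSO replicate 6). BAD, whose binding to survival proteins is blocked by phosphorylation, measured 18.4 ± 3.50 and 16.4 ± 1.51 CPM (SD, n = 6 each; log2 fold change -0.15, adjusted p = 0.251). In replicates 1 to 3 alone BAD passed the test (adjusted p = 0.0223), and 23.7% of its exon bases are shared with GPR137. BCL2L11 (BIM), a BH3-only protein that binds all survival members, measured 30.8 ± 2.18 and 29.1 ± 2.27 CPM (SD, n = 6 each; log2 fold change -0.08, adjusted p = 0.339). HRK reached at most 2 reads in a DMSO library and 4 in a PBKi library, too few to compare.

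BCL2L13, a mitochondrial protein of the family with a role as a mitophagy receptor, measured 114, 121 and 128 CPM (lowest, median and highest) in DMSO and 130.3, 144 and 148 CPM in PBKi. The groups did not overlap, although the gap between them was small. BCL2L13 rose from 121 ± 5.49 to 142 ± 7.02 CPM (SD, n = 6 each; log2 fold change 0.24, SE 0.049, adjusted p = 0.000974).

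Of the 5 factors released from mitochondria, HTRA2 and CYCS fell and none rose. HTRA2 (Omi), a protease that relieves inhibition of caspases, went from 21.4 ± 2.05 to 17.6 ± 1.50 CPM (SD, n = 6 each; log2 fold change -0.28, adjusted p = 0.00670). Without PBKi replicates 3 and 6 its adjusted p was 0.0635, and 32.3% of its exon bases are shared with LOXL3 and AUP1. CYCS (cytochrome c), which nucleates the apoptosome and carries electrons in respiration, went from 652 ± 99.6 to 548 ± 40.0 CPM (SD, n = 6 each; log2 fold change -0.25, adjusted p = 0.0251). Its groups overlapped, and it did not pass without DMSO replicate 1, 2 or 3, nor without PBKi replicate 4, 5 or 6, with adjusted p-values from 0.0569 to 0.0763.

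AIFM1, a flavoprotein released from mitochondria that acts without caspases, measured 150.4 ± 3.16 and 142 ± 5.90 CPM (SD, n = 6 each; log2 fold change -0.08, adjusted p = 0.157). DIABLO (Smac), which displaces caspases from XIAP, measured 5.28 ± 1.09 and 5.15 ± 0.561 CPM (SD, n = 6 each; log2 fold change -0.02, adjusted p = 0.894), and 18.8% of its exon bases are shared with other genes. The sign of DIABLO turned without DMSO replicate 1 (0.02), DMSO replicate 5 (0.05), PBKi replicate 4 (0.01) or PBKi replicate 5 (0.03). ENDOG, a nuclease, measured 7.43 ± 4.54 and 5.92 ± 0.979 CPM (SD, n = 6 each; log2 fold change -0.27, adjusted p = 0.389). DMSO replicate 5 held 16.7 CPM of ENDOG while the other DMSO libraries held 5.04 to 6.42 CPM, and without it the log2 fold change was 0.06. Of the exon bases of ENDOG, 40.1% are shared with SPOUT1.

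Of the necroptosis genes, MLKL, the protein that permeabilises the plasma membrane, measured 12.6 ± 0.746 and 12.6 ± 1.28 CPM (SD, n = 6 each; log2 fold change -0.01, adjusted p = 0.933), and its sign turned when DMSO replicate 2 or 3 or PBKi replicate 3, 4 or 6 was left out, to at most 0.03. RIPK3, the kinase that activates MLKL, had at most 1 read in any library of either group. At this depth RIPK3 was close to undetected in both groups.

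**Figure D3:**
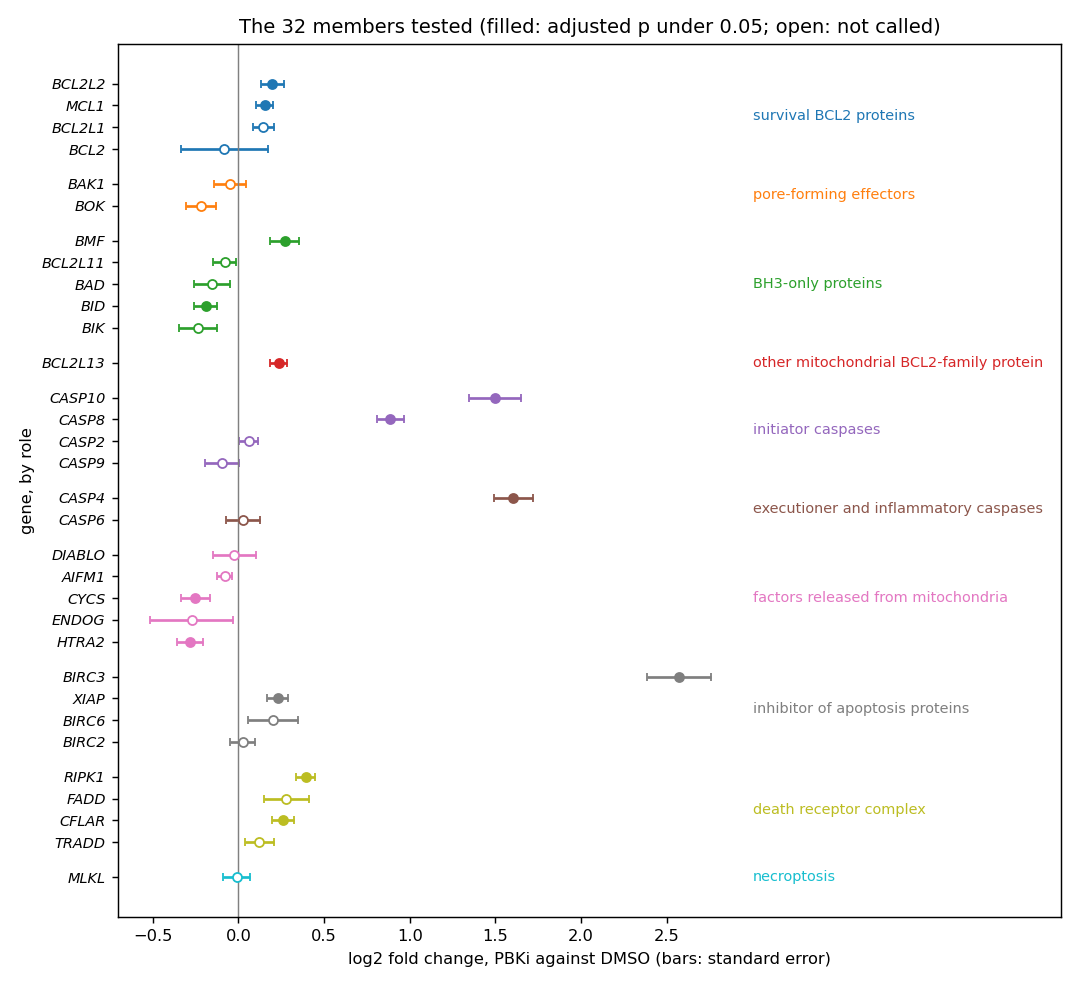
Log2 fold change of PBKi against DMSO with its standard error (horizontal axis) for the 32 members tested, grouped by role, with filled points for members that passed edgeR's test. BIRC3 (2.57), CASP4 (1.61), CASP10 (1.50) and CASP8 (0.89) stand apart, and the other 28 members lie between -0.28 and 0.39.

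Compared per kb of exon, the members spanned several orders of magnitude. The exon length merges all annotated exons of a gene, so ranks between genes are approximate. CYCS was the most abundant in both groups, at 113 and 94.7 CPM per kb in DMSO and PBKi, followed by MCL1 (37.5 and 41.7) and BCL2L1 (20.8 and 23.0). BCL2 was the lowest of the members tested, at 0.0933 and 0.0876 CPM per kb, and MCL1 and BCL2L1 were the most abundant survival transcripts of the family. In DMSO, BIRC3, CASP10 and CASP4 were ranked 31, 30 and 26 of 35 by level per kb, and in PBKi 27, 30 and 22. CASP8 moved from rank 22 to rank 16.

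**Figure D4:**
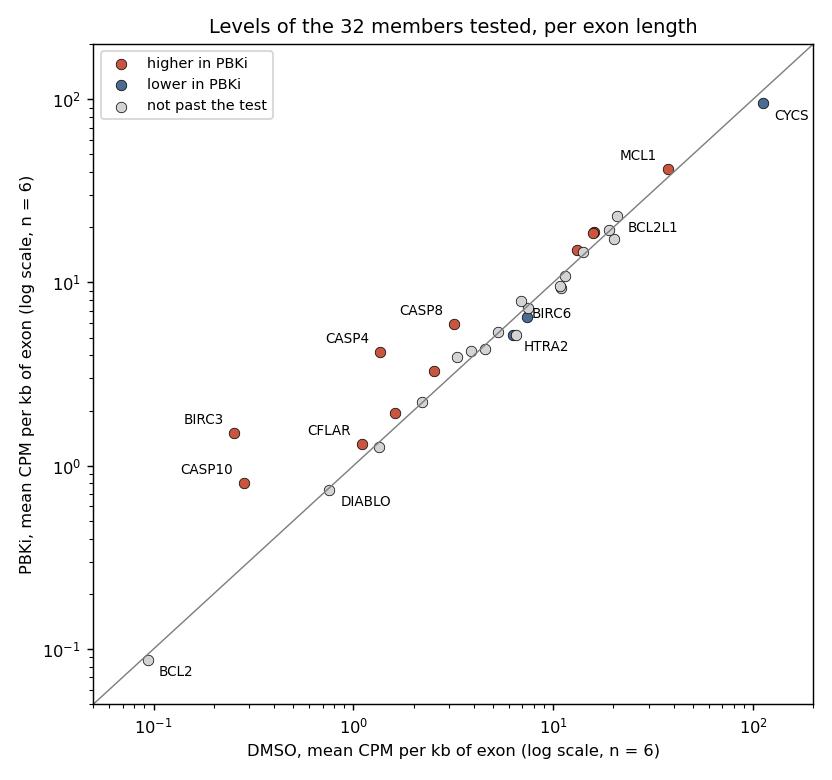
Mean level per kb of exon of the 32 members tested in PBKi (vertical axis) against DMSO (horizontal axis), both in CPM per kb on log scales with n = 6, and the line of equal level in grey. The genes that rose most, BIRC3, CASP10, CASP4 and CASP8, lie above the line in its lower part, while CYCS (113 against 94.7 CPM per kb) lies just below it at the top.

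Other genes of apoptosis and necroptosis moved in both directions. Of 41 further listed genes, 34 were tested, of which 6 were higher (beside 20.1% of all genes tested) and 13 lower (beside 21.5%) in PBKi by the same test, and their median log2 fold change was -0.11 (all genes tested, -0.01). The largest rises were in CYLD, a deubiquitinase acting on RIPK1 (log2 fold change 0.44, adjusted p = 0.000634), PEA15, a death-effector-domain protein (0.41, adjusted p = 1.43e-06), and RBCK1, a subunit of the linear ubiquitin ligase (0.30, adjusted p = 0.00136). The largest falls were in BNIP3, a mitochondrial BH3-like protein induced by hypoxia, from 222 ± 36.4 to 137 ± 24.6 CPM (SD, n = 6 each; -0.69, adjusted p = 0.000199), DFFB, the nuclease that cuts DNA in apoptosis (-0.52, adjusted p = 6.85e-05), and BCL2L14 (-0.50, adjusted p = 0.00460). The pore-forming effector BAX, chosen after its values were seen, had a log2 fold change of 0.0024 (adjusted p = 0.983). Also chosen after their values were seen, CASP1 and CASP5, the inflammatory caspases related to CASP4, had 0 reads in DMSO and at most 3 and 9 reads per library in PBKi, below the filter.

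Replicates 1 to 3 and 4 to 6, which an earlier analysis of these data had found to differ, were also tested as separate sets, and the largest rises were seen in both. In replicates 1 to 3 and 4 to 6, the log2 fold changes were 2.86 and 2.24 for BIRC3, 1.77 and 1.44 for CASP4, 1.65 and 1.34 for CASP10, 0.96 and 0.83 for CASP8 and 0.51 and 0.29 for RIPK1. These 5 members were called in either set alone. The labels do not name these sets. Both are parts of the libraries that gave the calls, so this is not independent support for them. The other 9 called members did not pass in replicates 4 to 6 alone, whereas all 14 called members passed in replicates 1 to 3 alone, where BCL2L1, BAD and BIRC6 passed as well (n = 3 per group in either set). Among the 14 called members, 13 had the larger effect in replicates 1 to 3, HTRA2 being the exception. The same share over all called genes is not given here. Over all genes, too, more were called in replicates 1 to 3 alone (3376 higher and 3184 lower) than in replicates 4 to 6 alone (1303 and 1216). The larger number of calls in replicates 1 to 3 is thus not particular to the members. The difference in effect between the sets was itself tested with edgeR's quasi-likelihood test. In that test, 0 of 32 members passed at an adjusted or an unadjusted p under 0.05. Of all 14505 genes, 0 passed at an adjusted and 700 at an unadjusted p under 0.05. By chance alone, about 5% of genes would reach an unadjusted p under 0.05.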

How the data were processed

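Reads (single-end) were aligned by the authors to GRCh37 with TopHat (2.0.4), and reads on genes were counted with HTSeq-count (0.5.3p9), per the submitters' processing notes and the study's methods. The deposited values are raw counts per gene and sequencing lane (47 lane files), without normalisation. Reads aligned to several places were not counted, and the 5 rows that name no gene were left out. The lanes of each library were summed here.

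PBKi (n = 6) was compared with DMSO (n = 6) by edgeR's quasi-likelihood test (edgeR 4.0.16, R 4.3.3) with TMM and no covariate, with Benjamini-Hochberg adjustment over 14505 genes. The study used DESeq. Group means are in CPM, and standard errors come from the same fit. Levels per kb used the merged length of all exons that GENCODE annotates for a gene on GRCh37. This length can exceed that of the transcripts present, which lowers the level per kb of genes with many or long annotated transcripts. The strand setting of the counting is not given in the sources used here, so overlapping and antisense genes are uncertain. Members and lists were chosen with earlier results of these data known. Values are given for all libraries by lowest, median and highest for members with a called log2 fold change of at least 0.5 or groups that do not overlap, and for the other list the 3 largest called rises and falls are named. Alternatives were RLE factors, DESeq2 1.42.0, limma-voom (limma 3.58.1), other filters and thresholds, lanes 6 to 8 only, a replicate block, a covariate for the sets of replicates, each set alone, and leaving out libraries. The procedure was tested on simulated counts in which a small part of the genes changed, by at least 0.5 on the log2 scale. That simulation does not cover the smaller changes called here. Depth was 9663203 to 28029908 reads on genes per library. Counting error is largest for genes of few reads, and limits cover counting error only. Some genes of the other list are not reported here by name.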

Additional observations from a re-analysis of the deposited data

Results flagged for a closer look

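Of 64 groups of 6 values examined (32 members in DMSO and in PBKi), 4 held a library far from the other 5, where chance alone flags about 1 in 20 groups. All 4 were in DMSO. BCL2L2 was 79.2 CPM in DMSO replicate 6 and 58.5 to 63.8 CPM in the other DMSO libraries. BMF was 10.9 CPM in DMSO replicate 5 and 7.96 to 8.86 CPM in the others. ENDOG was 16.7 CPM in DMSO replicate 5 and 5.04 to 6.42 CPM in the others. BIRC2 was 67.5 CPM in DMSO replicate 5 and 86.7 to 91.3 CPM in the others. DMSO replicate 5, the shallowest library, was the highest DMSO library in 13 and the lowest in 8 of the 32 members tested.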

How the results depend on the processing

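All 14 called members kept their direction under every alternative run, and CASP8, CASP10, CASP4, BIRC3 and RIPK1 were called under each, except RIPK1 where a change of at least 0.5 on the log2 scale was required. In replicates 4 to 6 alone, 5 members were higher and 0 lower, 1303 genes were higher and 1216 lower, and the list of other apoptosis genes had 2 higher and 5 lower. Without PBKi replicates 3 and 6 together, 0 members and 2083 genes were lower. At an adjusted p under 0.01, 1 member and 2073 genes were lower. With a change of at least 0.5 on the log2 scale required, 4 members were higher and 0 lower, and 1278 genes were higher and 626 lower. In replicates 1 to 3 alone, all 14 calls remained, with BCL2L1, BAD and BIRC6 added. With a covariate for the sets of replicates, BCL2L1 (adjusted p = 0.0404) and BOK (0.0186) were added. Without a filter on low counts, MCL1 and BID were not called, and with lanes 6 to 8 only, BID and BMF were not called. The cause of these changes was not tested.

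With the replicate number as a block, 13 members were higher and 4 lower (3485 and 3803 genes), and all 14 calls remained, with BCL2L1, BOK and BIRC6 added. Correlations were taken of deviations from the group means. By these, PBKi replicates 3, 4, 5 and 6 correlated best with the DMSO library of the same number (0.256, 0.299, 0.0887 and 0.234). For replicate 5 the next best was close, at 0.0833. PBKi replicates 1 and 2 correlated best with DMSO replicate 3. Whether the numbers pair the samples was not settled, and the main fit did not pair them.

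Members that were not called and changed sign were as follows. BCL2 was 0.023 in replicates 1 to 3 and 0.17 without PBKi replicates 3 and 6, and -0.21 to 0.089 with each library left out. BAK1 was 0.033 in replicates 4 to 6 and -0.096 to 0.028 with each library left out. CASP6 was -0.11 in replicates 4 to 6 and -0.034 to 0.093 with each library left out. DIABLO was 0.069 in replicates 1 to 3 and -0.078 to 0.052 with each library left out. ENDOG was 0.085 in replicates 1 to 3 and -0.35 to 0.060 with each library left out. BIRC2 was -0.026 to 0.060 with each library left out. MLKL was 0.0095 with at least 50 counts, 0.030 in replicates 4 to 6, 0.067 without PBKi replicates 3 and 6, and -0.038 to 0.033 with each library left out.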
